A study of Rattus norvegicus with 26 samples.

Results

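Interferon-stimulated genes were followed across the rat spinal cord after clip compression, with and without a graft of mesenchymal stem cells taken from human umbilical cord (hUC-MSCs). The set was a named list of 35 genes, and all 35 were found by symbol among the 32883 genes of the count table. All 35 also passed the filter on low counts that left 17990 genes for testing. The 26 libraries were made from 5 mm segments of 250 g adult female wild type Sprague-Dawley rats, which the labels place at postnatal day 70 in every group. Intact (n = 4) had no injury and no treatment by the labels. The study calls these rats both normal and intact/sham, so whether they had sham surgery is unclear. The other groups had a clip of 60 g closed on the cord at thoracic level 10 for 1 min. sub-SCI (n = 3) was sampled 7 days later, at the time of transplantation. +MSC rats received hUC-MSCs and +PBS rats vehicle into the intrathecal space on day 7, and they were sampled 1, 2 or 4 weeks post-transplantation (wpt), which is 14, 21 or 35 days after injury. These groups were +PBS-1w (n = 3), +PBS-2w (n = 2), +PBS-4w (n = 4), +MSC-1w (n = 3), +MSC-2w (n = 3) and +MSC-4w (n = 4).

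As a model, the xenograft was given under daily cyclosporin A, an immunosuppressant. Whether Intact or sub-SCI rats received it is not given in the sources used here. Each library is bulk tissue, so fewer cells of a type and less RNA per cell cannot be told apart. The labels do not state that libraries of a group are separate animals, whereas the study's methods call them biological replicates. Markers of the labelled tissue were present, since the summed level of 9 neuron markers in Intact had a median of 8984 CPM (the count scaled to library size) and that of 6 oligodendrocyte markers a median of 54276 CPM. Total counts ranged from 19496602 to 43468509 per library.

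Interferons are secreted signals of antiviral defence. Type I interferons act through a receptor whose kinases JAK1 and TYK2 switch on the complex ISGF3, which holds STAT2 and IRF9 and binds the interferon-stimulated response element (ISRE) in target promoters. Interferon gamma instead acts through the gamma-activated site (GAS). The products sense viral nucleic acid, block viral RNA and protein production, attach the ubiquitin-like protein ISG15 to other proteins, or feed back on the pathway. In the central nervous system microglia, astrocytes and infiltrating immune cells are known to respond in this way.

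Promoters are shown because the ISRE is the sequence through which many of these genes are known to be switched on. RefSeq promoter windows of the GRCr8 build, 250 bases before to 50 bases after a gene's start, were held for 25 of the 35 genes. The ISRE core was searched as GAAA, any 2 bases and GAAA again, which reads TTTC, any 2 bases and TTTC on the other strand, and it was found for 16 of those 25 genes. It was found for 1131 of the 27457 genes with a window, which is 4.12%. The GAS core TTCNNNGAA, which reads the same on both strands, was found for 5 of the 25 genes (Irf1, Irf9, Bst2, Oas1a and Parp14) and for 9.39% of all genes with a window. In Bst2 the GAS core overlaps an ISRE core. No ISRE core was found in the windows of Irf1, Irf9, Stat2, Cmpk2, Mx1, Oasl, Herc6, Trim25 and Parp9. The windows below are those of 6 genes described further on, from 6 of the 8 roles, chosen among those with an ISRE core. They are in lower case from 5′ to 3′ along the transcribed strand with the ISRE core in capitals. Ifih1 lies at chr3:67683919-67684218 (minus strand), Bst2 at chr16:18254918-18255217 (minus), Gbp2 at chr2:234005477-234005776 (plus), Oas1a at chr12:41330216-41330515 (plus), Parp12 at chr4:68850492-68850791 (minus) and Ifi44 at chr2:243303791-243304090 (minus).
Ifih1: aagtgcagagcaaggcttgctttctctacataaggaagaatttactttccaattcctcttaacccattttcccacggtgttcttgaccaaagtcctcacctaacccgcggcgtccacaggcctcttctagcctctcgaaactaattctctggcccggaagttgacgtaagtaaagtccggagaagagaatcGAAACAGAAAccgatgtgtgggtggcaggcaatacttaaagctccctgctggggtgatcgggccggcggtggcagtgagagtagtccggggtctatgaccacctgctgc
Bst2: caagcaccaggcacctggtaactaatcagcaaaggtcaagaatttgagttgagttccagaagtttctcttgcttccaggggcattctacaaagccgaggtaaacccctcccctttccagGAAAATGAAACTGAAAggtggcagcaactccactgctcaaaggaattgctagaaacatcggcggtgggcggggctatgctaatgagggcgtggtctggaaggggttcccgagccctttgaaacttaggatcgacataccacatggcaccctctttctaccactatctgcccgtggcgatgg
Gbp2: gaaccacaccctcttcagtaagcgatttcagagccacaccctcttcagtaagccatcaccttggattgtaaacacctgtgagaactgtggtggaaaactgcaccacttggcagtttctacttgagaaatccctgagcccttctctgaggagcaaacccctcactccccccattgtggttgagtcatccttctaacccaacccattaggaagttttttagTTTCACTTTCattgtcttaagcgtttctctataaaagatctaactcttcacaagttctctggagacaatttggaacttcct
Oas1a: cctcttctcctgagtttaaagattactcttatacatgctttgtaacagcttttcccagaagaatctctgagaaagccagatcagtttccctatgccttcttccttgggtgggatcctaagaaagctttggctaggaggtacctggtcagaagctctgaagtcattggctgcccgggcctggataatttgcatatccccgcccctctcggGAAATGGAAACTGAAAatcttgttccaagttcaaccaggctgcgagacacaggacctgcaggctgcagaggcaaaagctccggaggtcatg
Parp12: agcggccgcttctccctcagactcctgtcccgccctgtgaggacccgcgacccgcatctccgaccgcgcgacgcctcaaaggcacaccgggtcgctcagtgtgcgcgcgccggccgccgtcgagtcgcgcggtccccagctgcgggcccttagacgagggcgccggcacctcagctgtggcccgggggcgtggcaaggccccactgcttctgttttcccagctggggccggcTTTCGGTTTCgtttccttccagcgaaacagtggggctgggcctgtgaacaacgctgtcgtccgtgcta
Ifi44: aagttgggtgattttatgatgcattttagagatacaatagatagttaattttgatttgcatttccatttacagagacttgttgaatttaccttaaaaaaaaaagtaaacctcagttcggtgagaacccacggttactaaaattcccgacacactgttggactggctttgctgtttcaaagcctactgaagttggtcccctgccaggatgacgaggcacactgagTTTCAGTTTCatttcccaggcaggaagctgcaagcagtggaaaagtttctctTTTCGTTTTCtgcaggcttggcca

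In Ifih1 the core ran from base -59 to base -50, counted from the start. Bst2 and Oas1a each held a pair of overlapping cores, which began at bases -131 and -125 in Bst2 and at bases -41 and -35 in Oas1a. The cores of Gbp2 and Parp12 read on the other strand and began at bases -31 and -18. Ifi44 held 1 core before its start and 1 after it. A match is a description of letters and not of a bound site.

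The injured cord held more RNA of most interferon-stimulated genes than the Intact cord in every injured group. A gene was called where its adjusted p was under 0.01 in edgeR's quasi-likelihood test over all genes and its log2 fold change lay beyond 1 in either direction. In sub-SCI against Intact 29 of 35 genes were called higher and 0 lower, where 16.6% of all genes tested were called higher. Against Intact, 31 were called higher in +PBS-1w (13.5% of all genes), 30 in +PBS-2w (8.84%) and 30 in +PBS-4w (13.3%), and 0 lower in each, where 17.5%, 12.5%, 5.66% and 10.7% of all genes were called lower in sub-SCI and in +PBS at 1, 2 and 4 wpt. The median log2 fold change of the 35 genes was 1.86 in sub-SCI, 2.48 in +PBS-1w, 1.83 in +PBS-2w and 1.94 in +PBS-4w, beside medians over all genes of -0.02, -0.01, 0.00 and 0.05. Among these 4 groups the mean level was highest in +PBS-1w for 28 genes, in +PBS-2w for 4, in sub-SCI for 3 and in +PBS-4w for 0. Irf1, Isg20 and Gbp2 were the 3 with their highest mean in sub-SCI. Every library of the injured group lay above every Intact library for 30 genes in sub-SCI (32.9% of all genes), 33 in +PBS-1w (28.5%), 34 in +PBS-2w (31.1%) and 31 in +PBS-4w (22.4%). The +PBS-2w count comes from 2 libraries, and in both all 35 genes lay above the Intact mean. The median log2 ratio to that mean was 2.09 in replicate 1 and 1.72 in replicate 2. Fewer genes were called without replicate 1, but +PBS-2w then held 1 library, too few to judge the rise.

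**Figure D1:**
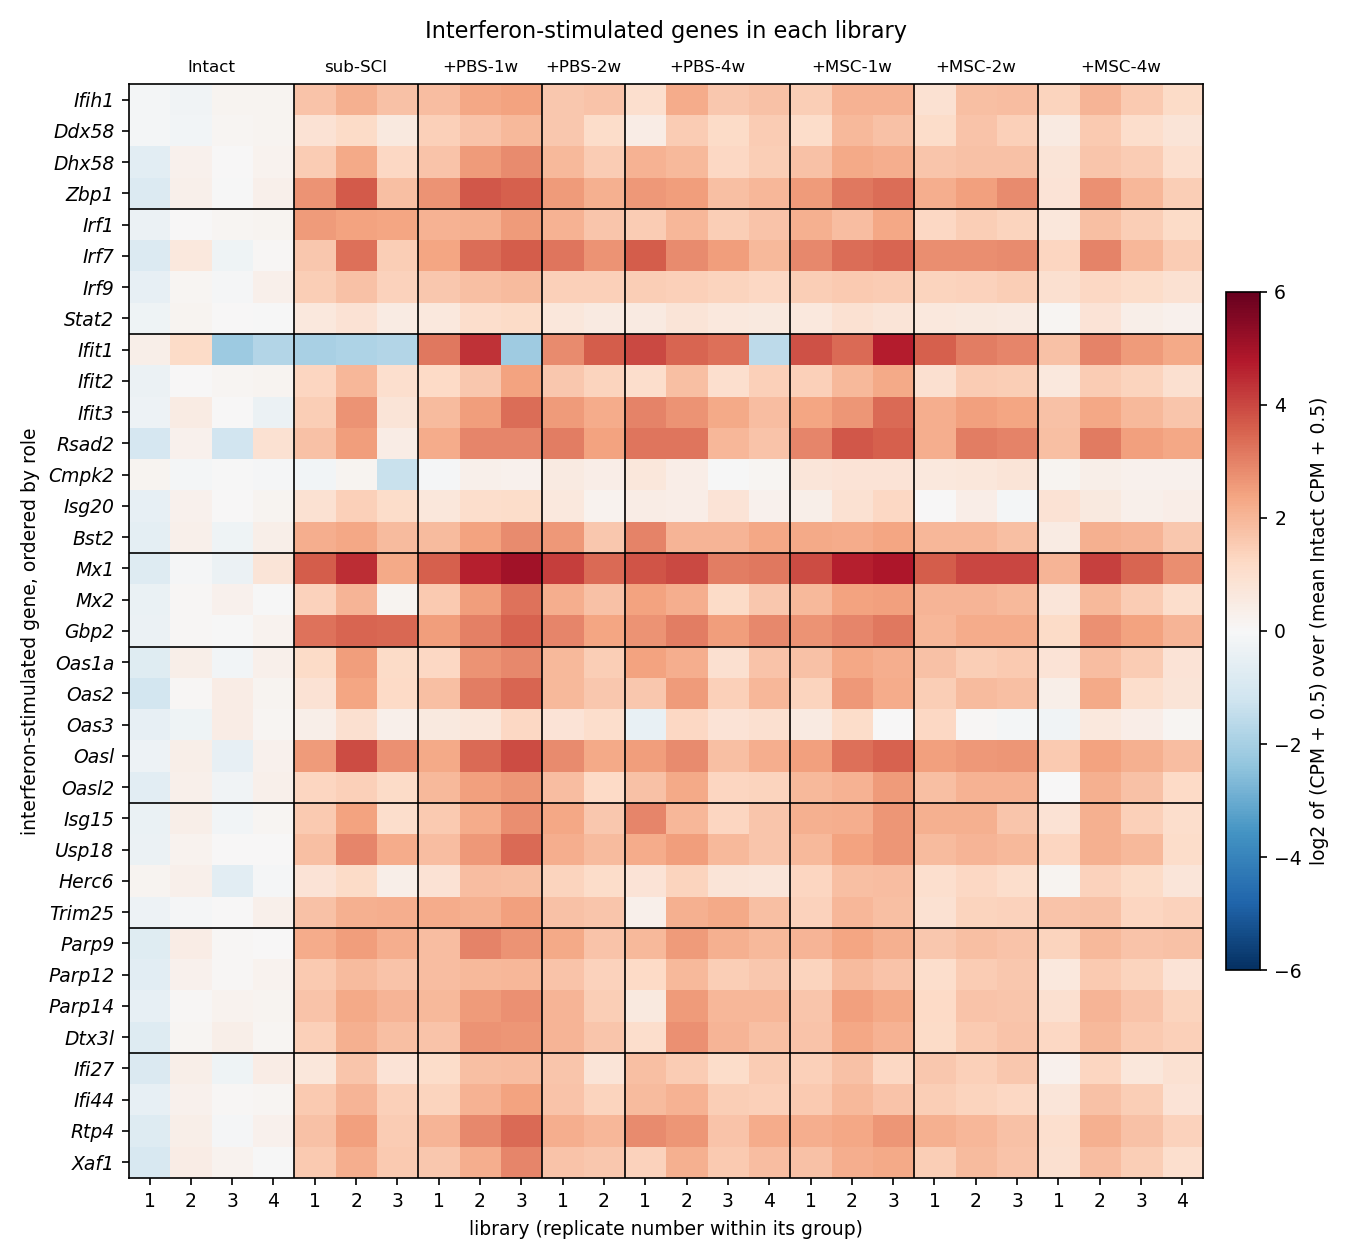
Level of each interferon-stimulated gene (down the side, ordered by role) in each of the 26 libraries (across, grouped and numbered by replicate), as the log2 ratio of CPM + 0.5 to the mean Intact CPM + 0.5, red above and blue below Intact. Injured libraries are red for most genes, whereas Ifit1 is blue in all 3 sub-SCI libraries and in 1 library each of +PBS-1w and +PBS-4w, as it is in 2 Intact libraries.

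**Figure D2:**
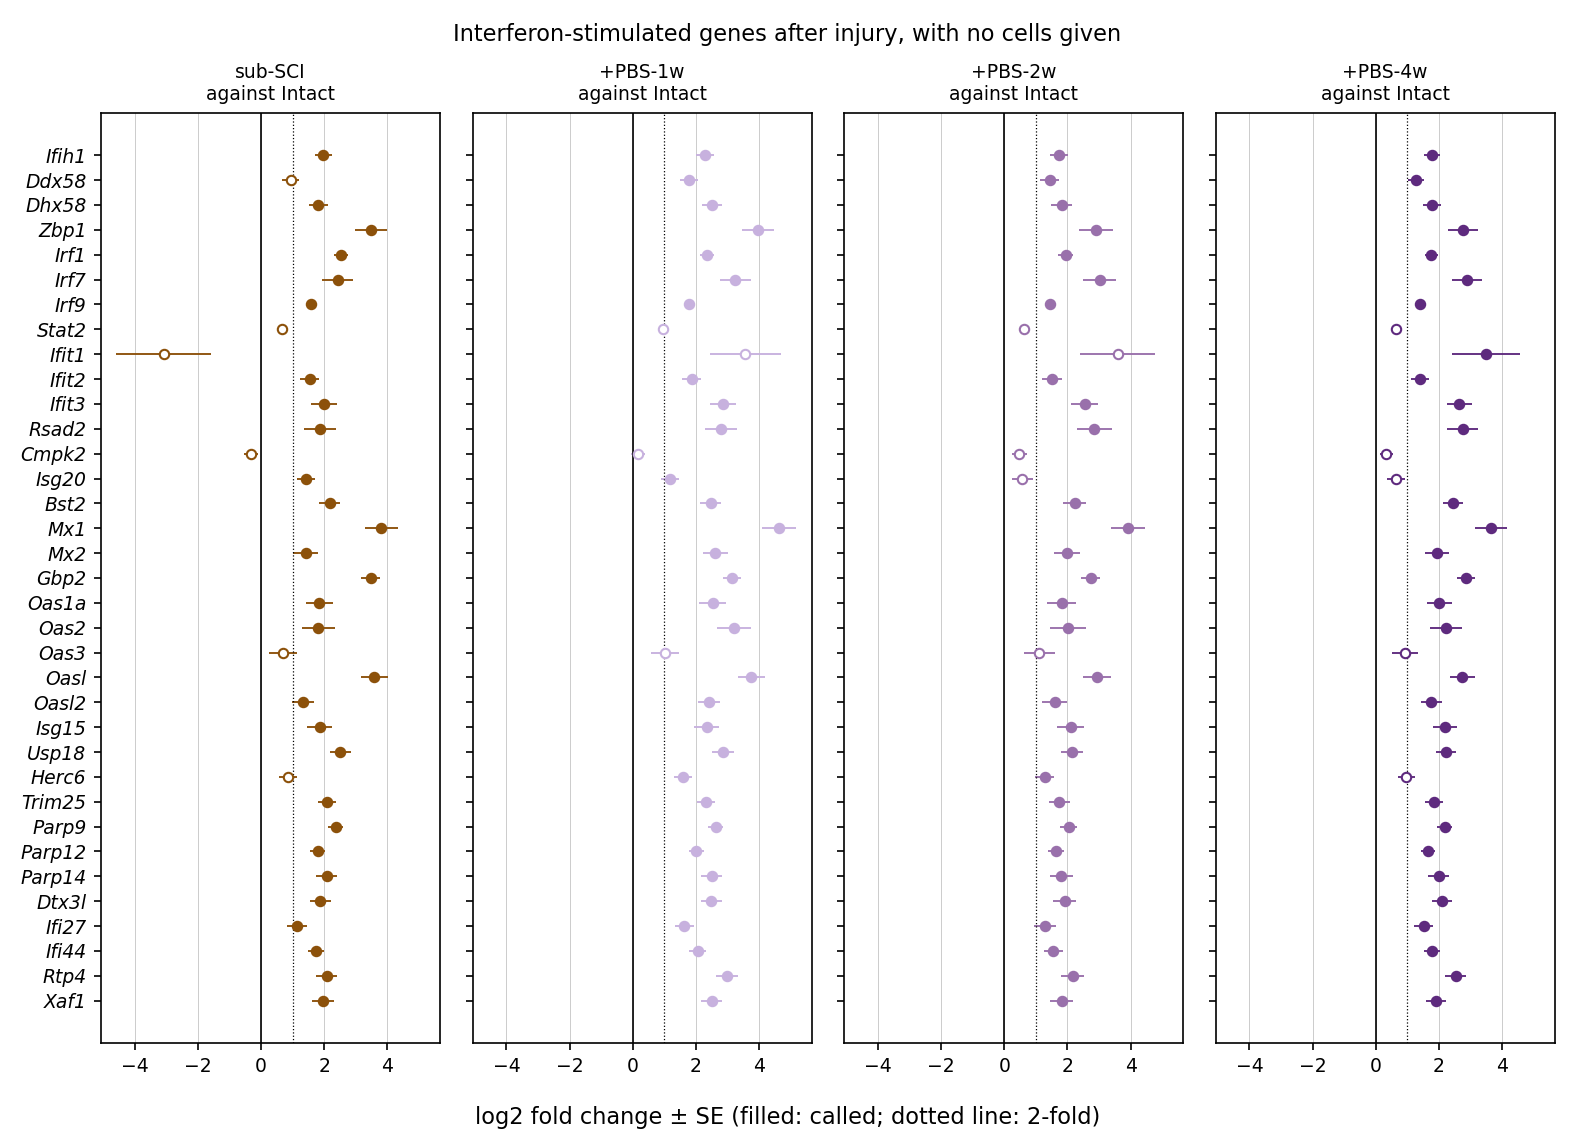
Log2 fold change with its standard error (SE) for each of the 35 genes (vertical axis) in sub-SCI and in +PBS at 1, 2 and 4 wpt against Intact, with filled points for called genes. Of the points, 29, 31, 30 and 30 are filled, and the point far to the left in sub-SCI is Ifit1 at -3.08.

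Sensors recognise viral RNA or DNA inside the cell. Ifih1 (the RNA sensor MDA5) measured 5.35, 4.99, 6.61 and 6.61 CPM in Intact and 20.5, 27.8 and 21.0 CPM in sub-SCI. It measured 22.5, 31.2 and 33.3 CPM in +PBS-1w, 18.9 and 20.4 CPM in +PBS-2w, and 12.4, 29.2, 19.0 and 20.8 CPM in +PBS-4w. No library of these groups reached down into the Intact range. Its log2 fold change was 1.97 ± 0.27 (SE, adjusted p = 2.53e-06) in sub-SCI and 2.29 ± 0.28 in +PBS-1w (adjusted p = 6.65e-07). Zbp1 (a sensor of Z-form nucleic acids that can start necroptosis) had between 0.273 and 1.19 CPM in Intact. It had 8.4, 16.9 and 4.31 CPM in sub-SCI, 8.29, 17.5 and 16.2 CPM in +PBS-1w, 7.65 and 5.59 CPM in +PBS-2w, and between 4.25 and 7.68 CPM in +PBS-4w. The Zbp1 rise was 3.47 ± 0.51 in sub-SCI and 3.98 ± 0.51 in +PBS-1w on the log2 scale (adjusted p = 4.81e-06 and 1.76e-06). Dhx58 (LGP2) was called higher in all 4 comparisons, and Ddx58 (RIG-I) in the 3 +PBS groups but not in sub-SCI, where its log2 fold change was 0.93 ± 0.28.

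The transcription factors carry or amplify the signal. Irf1 (induced by interferon gamma and a driver of antigen processing genes) measured 5.57, 7.28, 7.96 and 8.25 CPM in Intact. In sub-SCI it measured 45.8, 41.0 and 39.0 CPM, in +PBS-1w 32.4, 33.1 and 45.8 CPM, in +PBS-2w 32.1 and 24.0 CPM, and in +PBS-4w 21.9, 30.1, 21.3 and 24.9 CPM. The 3 sub-SCI libraries thus lay above all 4 +PBS-4w libraries. Irf1 rose by 2.53 ± 0.22 in sub-SCI (adjusted p = 3.25e-09) and by 1.75 ± 0.20 in +PBS-4w (adjusted p = 4.95e-07). Irf9, the DNA-binding subunit of ISGF3, had the smallest SE of the 35 genes in each comparison. It measured 15.6, 23.9, 21.1 and 26.8 CPM in Intact, 62.0, 76.2 and 57.5 CPM in sub-SCI, and between 51.7 and 82.3 CPM in the 9 +PBS libraries. Irf9 rose by 1.58 ± 0.14 in sub-SCI and 1.79 ± 0.14 in +PBS-1w (adjusted p = 3.51e-09 and 1.29e-09). Irf7, the amplifier of type I interferon production, was called higher in all 4 comparisons, with 6.38 to 18.6 CPM in Intact and 61.6, 123 and 151 CPM in +PBS-1w.

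Stat2, the partner of IRF9, was called in none of these comparisons because its fold stayed under 2, although in +PBS-1w it lay close to that limit. It measured 58.1, 78.1, 70.1 and 67.8 CPM in Intact, 105, 123 and 95.5 CPM in sub-SCI, 105, 142 and 151 CPM in +PBS-1w, 111 and 101 CPM in +PBS-2w, and 98.7, 118, 107 and 104 CPM in +PBS-4w. All 12 of these injured libraries lay above all 4 Intact libraries. Its log2 fold change was 0.66 ± 0.14 in sub-SCI (adjusted p = 0.000481) and 0.95 ± 0.14 in +PBS-1w (adjusted p = 1.28e-05). In +PBS-1w Stat2 was called without the low-count filter (1.01), with at least 10 counts in every library (1.02), without the replicate 1 libraries (1.05) and in 4 of the 26 fits that left out 1 library, those without Intact replicate 2 or without replicate 1 of a +PBS group (at most 1.09). Per kilobase of gene length, Stat2 was second among the 35 genes in Intact, at 17.0 ± 2.1 CPM per kilobase (SD, n = 4), after Ifi27 at 146 ± 55 and before Irf9 at 13.7 ± 3.0. Stat2 and Irf9 did not differ in level beyond the sum of their SDs.

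The antiviral effectors act on viral RNA, nucleotides or budding. Bst2 (tetherin, which holds budding virus at the membrane) measured 6.88, 13.3, 8.65 and 13.5 CPM in Intact and 49.0, 54.4 and 40.5 CPM in sub-SCI. It measured 40.2, 57.7 and 78.7 CPM in +PBS-1w, 66.3 and 33.6 CPM in +PBS-2w, and 86.6, 45.7, 44.8 and 54.3 CPM in +PBS-4w. The groups did not overlap with Intact, and the log2 fold change was 2.18 ± 0.33 in sub-SCI and 2.45 ± 0.32 in +PBS-4w (adjusted p = 8.54e-06 and 2.38e-06). Ifit2 (which binds viral RNA and restrains its translation) measured 10.2 to 14.9 CPM in Intact, 33.3, 54.9 and 27.1 CPM in sub-SCI, and between 27.3 and 73.1 CPM in the +PBS libraries. Its log2 fold change was 1.53 ± 0.30 in sub-SCI (adjusted p = 0.000137). Ifit3 and Rsad2 (viperin, which makes a chain-terminating nucleotide) were called higher in all 4 comparisons, and Isg20 (a 3′ to 5′ exonuclease) in sub-SCI and +PBS-1w.

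Cmpk2 (a mitochondrial nucleotide kinase that lies beside Rsad2 in mammalian genomes) was an effector not called in any injured group. It measured 38.8, 31.7, 34.0 and 32.6 CPM in Intact, 30.7, 38.4 and 13.3 CPM in sub-SCI, 32.5, 42.5 and 41.4 CPM in +PBS-1w, 49.7 and 45.7 CPM in +PBS-2w, and 56.0, 45.5, 33.4 and 36.7 CPM in +PBS-4w. Its log2 fold change was -0.32 ± 0.22 in sub-SCI (adjusted p = 0.221) and 0.18 ± 0.22 in +PBS-1w (adjusted p = 0.515). Rsad2 in the same libraries had 3.49, 9.02, 3.15 and 14.7 CPM in Intact and 37.9, 60.5 and 61.4 CPM in +PBS-1w, with a log2 fold change of 2.80 ± 0.52 (adjusted p = 0.000128). The difference between the responses of Cmpk2 and Rsad2 was not tested.

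Ifit1 did not follow the other Ifit genes. It was at 0.0925 and 0.304 CPM in Intact replicates 3 and 4, at 0.203, 0.254 and 0.305 CPM in the 3 sub-SCI libraries, at 0.12 CPM in +PBS-1w replicate 3 and at 0.413 CPM in +PBS-4w replicate 4. In the other 19 libraries it ranged from 2.89 to 70.4 CPM, with 23.5 and 53.6 CPM in the other +PBS-1w libraries and 41.9, 29.4 and 26.4 CPM in the other +PBS-4w libraries. No library lay between 0.413 and 2.89 CPM, and the 7 low libraries held 2 to 9 reads of Ifit1 each. In those 7 libraries Ifit3 ranged from 2.96 to 44.6 CPM, and +PBS-1w replicate 3 had the highest Ifit3 (44.6 CPM) and Ifit2 (73.1 CPM) of its group. Ifit1 was the only 1 of the 17990 genes tested that separated these 7 libraries from the rest by at least 2-fold, a search made after its values were seen. Its neighbouring paralog in the table, Ifit1bl, ranged from 0.915 to 4.24 CPM over all libraries. How reads shared between close paralogs were assigned is not given in the sources used here, so the level of Ifit1 is uncertain.

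The test of Ifit1 follows from that split. Its log2 fold change against Intact was -3.08 ± 1.5 in sub-SCI (adjusted p = 0.0811), 3.57 ± 1.12 in +PBS-1w (adjusted p = 0.0102), 3.59 ± 1.18 in +PBS-2w (adjusted p = 0.0211) and 3.50 ± 1.08 in +PBS-4w (adjusted p = 0.00964). The call in +PBS-4w was lost in 5 of the 8 other settings tried, and in 22 of the 26 fits that left out 1 library.

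**Figure D3:**
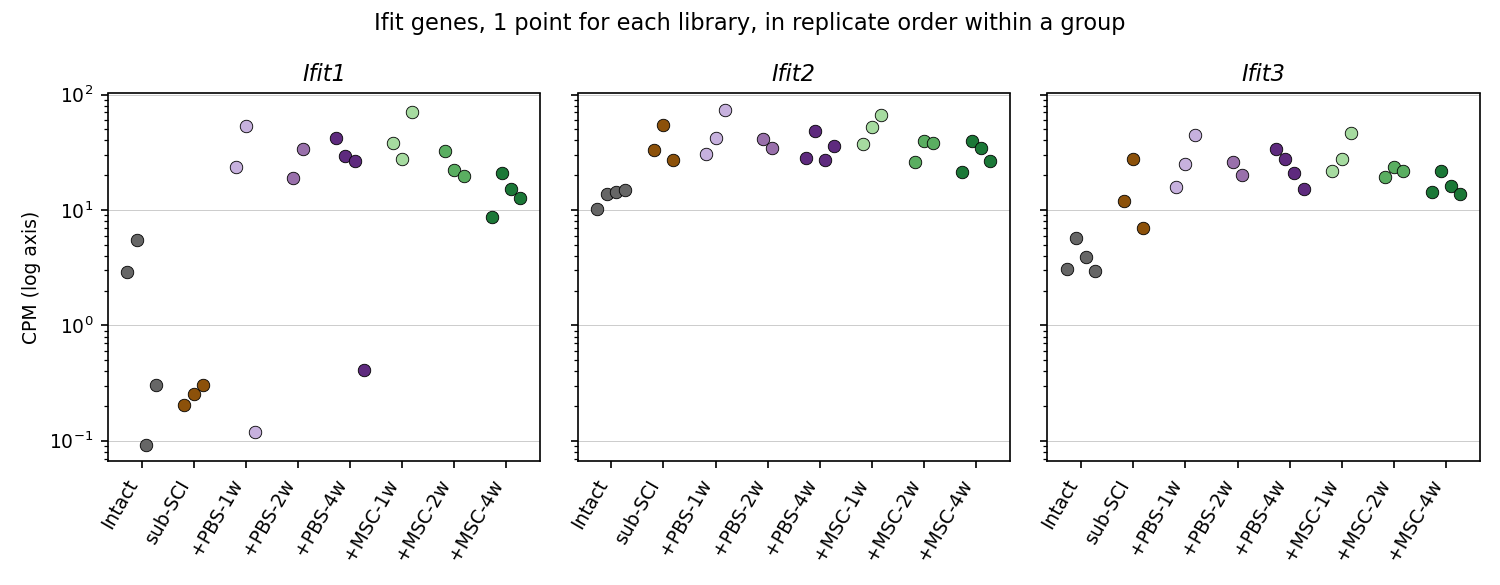
CPM on a log axis of Ifit1, Ifit2 and Ifit3, with 1 point for each of the 26 libraries placed in replicate order within its group. Ifit1 lies at 0.413 CPM or below in 7 libraries and at 2.89 CPM or above in the other 19, whereas Ifit2 and Ifit3 show no such gap.

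Mx and Gbp genes encode GTPases of antiviral and antimicrobial defence. Mx1 had the largest log2 fold change of the 35 genes in sub-SCI and in each +PBS group against Intact, with 2.89, 4.99, 4.02 and 9.46 CPM in Intact and 73.0, 126 and 27.8 CPM in sub-SCI. It measured 68.5, 147 and 190 CPM in +PBS-1w, 102 and 61.4 CPM in +PBS-2w, and 79.4, 91.0, 49.1 and 51.3 CPM in +PBS-4w. The lowest injured library was thus above the highest Intact library. The log2 fold change of Mx1 was 3.80 ± 0.52 in sub-SCI and 4.64 ± 0.54 in +PBS-1w (adjusted p = 2.04e-06 and 4e-07). Gbp2, a GTPase strongly induced by interferon gamma, measured 7.97, 10.7, 9.99 and 12 CPM in Intact, 102, 119 and 116 CPM in sub-SCI, 60.0, 85.8 and 125 CPM in +PBS-1w, 81.9 and 54.1 CPM in +PBS-2w, and 69.6, 88.8, 59.6 and 77.8 CPM in +PBS-4w. It had the smallest adjusted p of the 35 genes in sub-SCI, 2.41e-09, at a log2 fold change of 3.46 ± 0.29. Mx2 was called higher in all 4 comparisons.

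The OAS family makes or resembles the enzymes that produce 2′-5′ oligoadenylates, the activators of RNase L. Oasl measured 1.04, 1.92, 0.833 and 1.75 CPM in Intact, 10.4, 28.1 and 11.9 CPM in sub-SCI, 8.74, 19.7 and 28.1 CPM in +PBS-1w, 12.8 and 8.69 CPM in +PBS-2w, and 10.1, 13.1, 6.08 and 8.17 CPM in +PBS-4w. Oasl rose by 3.59 ± 0.43 in sub-SCI (adjusted p = 3.22e-07) and 3.75 ± 0.43 in +PBS-1w (adjusted p = 3.58e-07). Oas1a measured 2.95 to 6.83 CPM in Intact and 12.1, 32.7 and 12.1 CPM in sub-SCI, where it rose by 1.84 ± 0.42 (adjusted p = 0.000671). That call was lost without sub-SCI replicate 2, the library with 32.7 CPM. Oas2 and Oasl2 were called higher in all 4 comparisons. Oas3 was called in none, with 1.09, 1.42, 2.64 and 1.94 CPM in Intact, 2.44, 3.91 and 2.27 CPM in sub-SCI, 2.88, 3.13 and 4.84 CPM in +PBS-1w, 3.55 and 4.16 CPM in +PBS-2w, and 1.19, 4.94, 3.53 and 3.9 CPM in +PBS-4w. The groups overlapped in sub-SCI and +PBS-4w, and the log2 fold changes of Oas3 lay between 0.69 and 1.11 with SEs of 0.42 to 0.49. Oas3 was called by DESeq2 on the groups compared in +PBS-1w (1.06, adjusted p = 0.0083), and by edgeR in +PBS-4w without +PBS-4w replicate 1 (1.26, adjusted p = 0.00852).

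ISG15 is attached to proteins by ligases such as HERC6 and TRIM25 and removed by USP18, which also dampens the type I receptor. Usp18 measured 3.87, 5.96, 5.23 and 5.13 CPM in Intact, 18.7, 42.2 and 25.7 CPM in sub-SCI, 19.3, 32.9 and 58.6 CPM in +PBS-1w, 24.6 and 20.2 CPM in +PBS-2w, and 25.6, 31.1, 21.1 and 17.3 CPM in +PBS-4w. Usp18 rose by 2.51 ± 0.34 in sub-SCI and 2.87 ± 0.34 in +PBS-1w (adjusted p = 1.51e-06 and 5.42e-07). Trim25 measured 9.22, 11, 11.7 and 14.4 CPM in Intact, 41.0, 53.2 and 53.7 CPM in sub-SCI, 55.6, 52.6 and 66.2 CPM in +PBS-1w, 40.2 and 37.7 CPM in +PBS-2w, and 14.3, 53.1, 58.8 and 41.4 CPM in +PBS-4w. Replicate 1 of +PBS-4w alone lay within the Intact range of Trim25. Isg15 itself was called higher in all 4 comparisons, and Herc6 in +PBS-1w and +PBS-2w.

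PARP9 and DTX3L form a complex of ADP-ribosylation and ubiquitination, and PARP12 and PARP14 are antiviral ADP-ribosyltransferases. All 4 of these genes were called higher in each of the 4 comparisons. Parp9 measured 8.95, 20.8, 15.8 and 15.3 CPM in Intact, 72.5, 90.1 and 71.0 CPM in sub-SCI, 57.0, 123 and 102 CPM in +PBS-1w, 75.0 and 50.4 CPM in +PBS-2w, and 59.0, 91.6, 67.4 and 59.6 CPM in +PBS-4w. It rose by 2.36 ± 0.25 in sub-SCI (adjusted p = 5.72e-08). Parp12 measured 4.15 to 8.11 CPM in Intact and 21.2, 26.5 and 23.1 CPM in sub-SCI, and it rose by 1.79 ± 0.24 (adjusted p = 1.47e-06). Neither gene overlapped between Intact and any of these injured groups.

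Of the other genes, Ifi44 measured 9.55, 16.4, 14.3 and 14.9 CPM in Intact and 41.9, 58.8 and 38.0 CPM in sub-SCI, with a log2 fold change of 1.74 ± 0.26 (adjusted p = 7.19e-06). Rtp4 measured 2.73, 6.55, 4.72 and 6.20 CPM in Intact, 18.1, 30.4 and 15.7 CPM in sub-SCI, and 22.7, 40.0 and 58.2 CPM in +PBS-1w, with log2 fold changes of 2.08 ± 0.34 in sub-SCI and 2.99 ± 0.35 in +PBS-1w (adjusted p = 1.97e-05 and 4.26e-07). Rtp4 encodes a zinc finger protein that restrains some viruses. Xaf1 (a regulator of apoptosis) and Ifi27 were called higher in all 4 comparisons. Ifi27 had the highest level per kilobase of the 35 genes also in +PBS-1w, at 452 ± 120 CPM per kilobase (SD, n = 3).

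Between sub-SCI and +PBS-4w the set stayed close on balance, with 18 genes higher and 17 lower in +PBS-4w and a median log2 fold change of 0.04. Ifit1 alone was called, at 6.58 ± 1.52 (adjusted p = 0.00316, where 4.28% of all genes were called higher), and that call was lost when any of the 3 sub-SCI libraries was left out. Irf1 was lower in +PBS-4w by 0.77 on the log2 scale (SE 0.21, adjusted p = 0.00933), under the fold threshold. Isg20 had -0.79 ± 0.28 (adjusted p = 0.0444) and Cmpk2 0.65 ± 0.22 (adjusted p = 0.0389), neither called. Gbp2 and Isg20 shared with Irf1 the pattern of every +PBS-4w library below every sub-SCI library, which 13.8% of all genes showed.

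With hUC-MSCs, no interferon-stimulated gene was called different from vehicle at any week, and the values leaned slightly lower. Of the 35 genes, 27 had a log2 fold change below 0 in +MSC-1w against +PBS-1w, 25 at 2 wpt and 34 at 4 wpt, where 50.2%, 49.7% and 54.5% of all genes tested did. The medians were -0.19, -0.08 and -0.45. The 35 genes tended to move together between libraries of a group, so a count of genes is not a count of independent results. In edgeR's test 0 genes were called at each week and in the mean of the 3 weekly differences. Of all genes, 0% were called higher and 0.0111% lower at 1 wpt, 0% either way at 2 wpt, 0.495% higher and 0% lower at 4 wpt, and 1.61% higher and 0.956% lower in the mean of the weeks. At an unadjusted p under 0.05, there was 1 gene higher and 0 lower at 1 wpt, 0 higher and 1 lower at 2 wpt, 0 higher and 7 lower at 4 wpt, and 0 higher and 6 lower in the mean of the weeks. Of all genes, 10.6% were higher and 7.34% lower at that limit in the first week. The same shares were 5.49% higher with 6.84% lower at 2 wpt, 11.2% higher with 11.3% lower at 4 wpt, and 18% higher with 18.2% lower in the mean of the weeks. The 7 of 35 lower at 4 wpt thus lay above the share of all genes, the 6 of 35 lower in the mean of the weeks lay near it, and the 0 of 35 higher in both lay below it. DESeq2 also called 0 of the 35 genes in each of these comparisons, on all libraries and on the groups compared. The share of all genes that DESeq2 called was not counted, so that 0 has no background beside it.

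**Figure D4:**
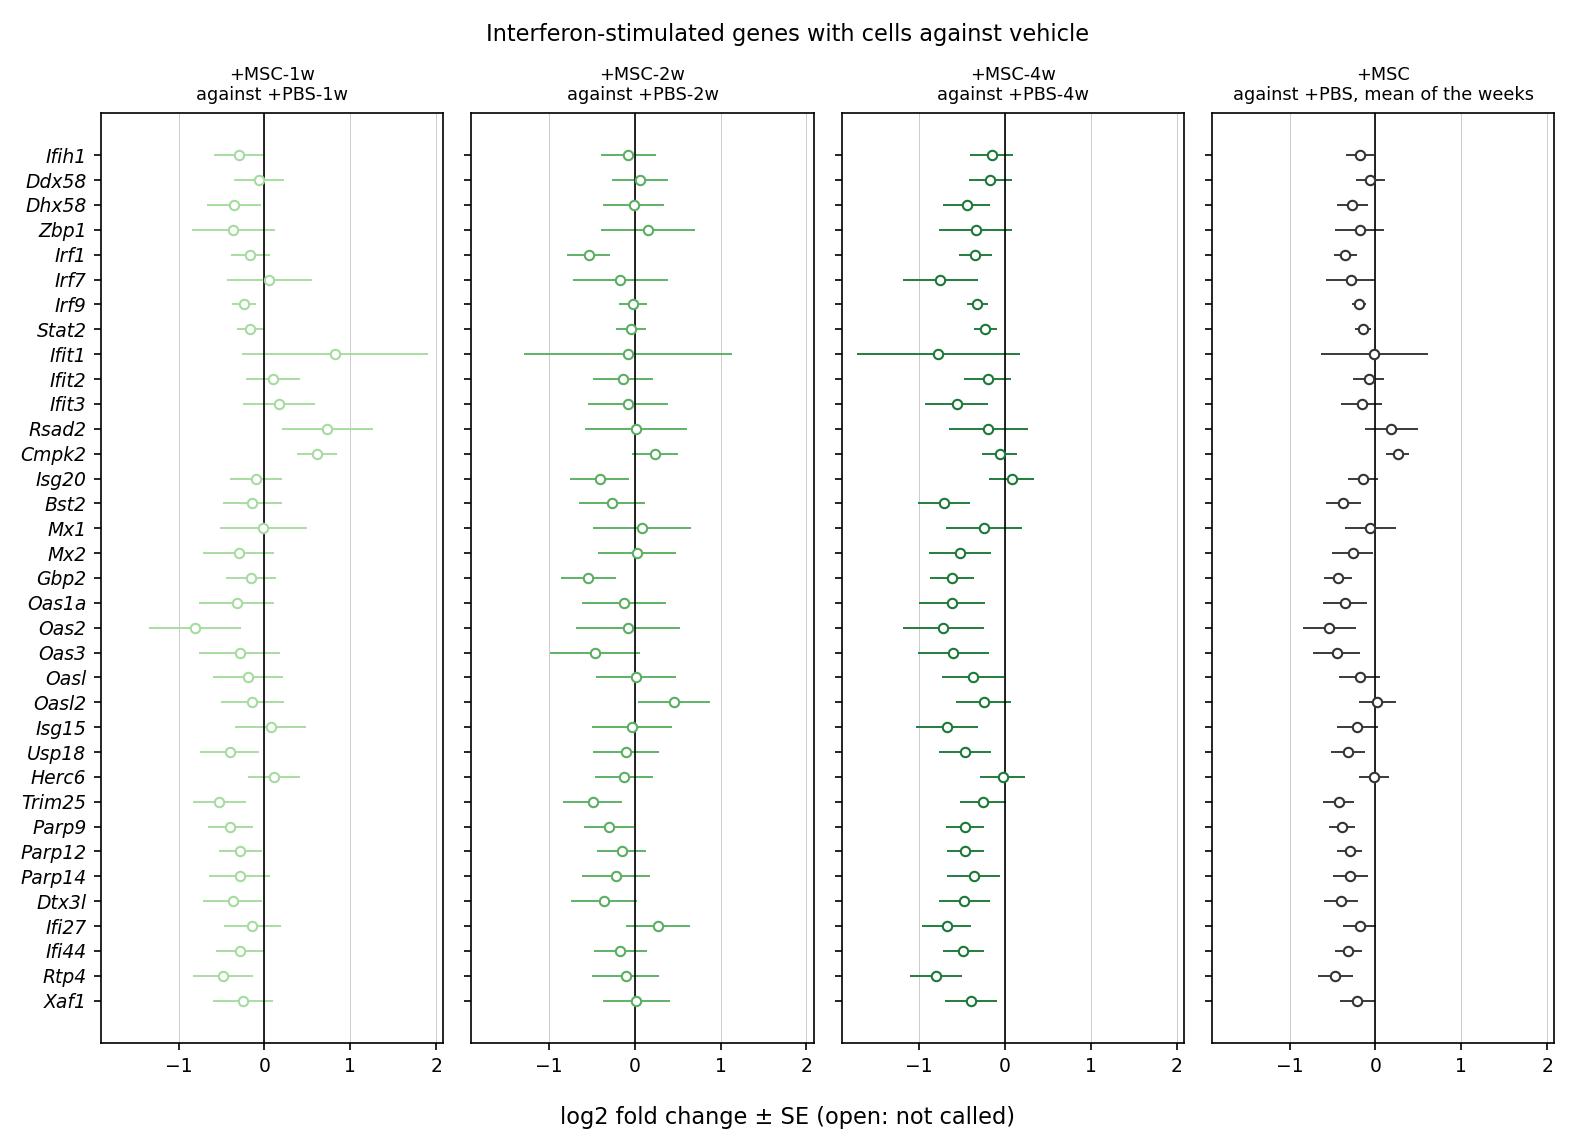
Log2 fold change with its SE for each of the 35 genes (vertical axis) in +MSC against +PBS at 1, 2 and 4 wpt and in the mean of the weeks. All points are open because no gene was called, and 34 of the 35 points lie left of 0 at 4 wpt. The points are not independent, since the genes tended to move together between libraries of a group.

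The 5 genes with the smallest p in the mean of the weeks were Irf1, Parp9, Gbp2, Trim25 and Irf9, and none passed the threshold. Irf1 measured 33.2, 27.6 and 38.5 CPM in +MSC-1w, 18.1, 20.8 and 19.1 CPM in +MSC-2w, and 12, 27.1, 21.2 and 16.9 CPM in +MSC-4w. Its mean log2 fold change was -0.35 ± 0.13 (adjusted p = 0.0546), with -0.16, -0.54 and -0.35 at 1, 2 and 4 wpt. At 2 wpt the 3 +MSC libraries lay below both +PBS libraries, while at the other weeks the groups overlapped. That pattern at 2 wpt was shown by 3 of the 35 genes (Irf1, Trim25 and Gbp2), below the 18.4% of all genes that showed it. Cmpk2 was the 1 gene with every +MSC-2w library above both +PBS-2w libraries, which 18.6% of all genes showed.

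Gbp2 showed 68.0, 79.4 and 96.3 CPM in +MSC-1w, 41.3, 49.5 and 49.4 CPM in +MSC-2w, and 23.0, 71.5, 55.5 and 42.8 CPM in +MSC-4w. Its mean log2 fold change was -0.44 ± 0.17 (adjusted p = 0.0633). Parp9 showed 64.9, 80.3 and 68.7 CPM in +MSC-1w, 47.3, 53.6 and 51.6 CPM in +MSC-2w, and 39.4, 59.0, 50.5 and 51.8 CPM in +MSC-4w, and its mean log2 fold change was -0.39 ± 0.15 (adjusted p = 0.063). At 4 wpt Parp9 was the only 1 of the 35 genes with no overlap, since its highest +MSC-4w value lay just below its lowest +PBS-4w value, a pattern that 4.47% of all genes showed in that direction.

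Trim25 showed 31.0, 47.8 and 42.1 CPM in +MSC-1w, 22.4, 29.8 and 31.1 CPM in +MSC-2w, and 39.5, 39.8, 29.0 and 31.4 CPM in +MSC-4w, with a mean log2 fold change of -0.43 ± 0.18 (adjusted p = 0.0881). Irf9 showed 62.3, 64.9 and 64.4 CPM in +MSC-1w, 56.4, 57.6 and 61 CPM in +MSC-2w, and 42.6, 51.7, 47.7 and 41.7 CPM in +MSC-4w, with a mean of -0.19 ± 0.08 (adjusted p = 0.0965). The SE of the mean of the weeks was at most 0.31 for the 34 genes other than Ifit1, whose SE was 0.62. A missed threshold does not show that +MSC and +PBS were alike.

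At 1 wpt 8 of the 35 genes had a log2 fold change above 0, at most 0.82, Cmpk2 and Rsad2 among them. Cmpk2 measured 57.7, 60.2 and 59.9 CPM in +MSC-1w, all above the 3 +PBS-1w libraries, with a log2 fold change of 0.61 ± 0.24 (adjusted p = 0.185). Rsad2 measured 62.1, 106 and 97.6 CPM in +MSC-1w, also without overlap, with 0.73 ± 0.53 (adjusted p = 0.506). Cmpk2 and Rsad2 were the 2 genes with every +MSC-1w library above every +PBS-1w library, which 15.3% of all genes showed. Trim25 and Irf9 were the 2 with every library below (11.6%). Both counts, 2 of 35, lay below the share of all genes. No gene's +MSC against +PBS difference was called as differing between weeks, where 0 of all genes were called and the smallest adjusted p of the 35 was 0.999. At an unadjusted p under 0.05 that difference was seen for 1 of the 35 genes between 1 and 4 wpt (Cmpk2) and for 0 in the other pairs of weeks. Of all genes, 2.04% were higher and 1.86% lower at that limit between 1 and 4 wpt, so 1 of 35 lay near that share. The shares were 1.51% and 1.16% between 1 and 2 wpt, and 0.995% and 1.3% between 2 and 4 wpt.

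Set beside Intact, the groups given cells stayed raised. Of the 35 genes, 32 were called higher in +MSC-1w (7.87% of all genes), 29 in +MSC-2w (5.6%) and 26 in +MSC-4w (7.25%). In each 0 were called lower, where 2.63%, 0.461% and 1.53% of all genes were. The medians were 2.21, 1.74 and 1.51. These comparisons share the 4 Intact libraries with those of +PBS, so their values are given side by side only. The 4 genes called in +PBS-4w and not in +MSC-4w were Oas1a, Ifi27, Oas2 and Ifit1, whereas none was called in the direct comparison. The mean level over all 8 groups was highest in +PBS-1w for 23 genes and in +MSC-1w for 8 (Irf7, Ifit1, Ifit2, Ifit3, Rsad2, Cmpk2, Isg15 and Herc6).

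Libraries of 1 group differed over many of the genes at once. In sub-SCI, replicate 2 was the highest of its group for 32 of 35 genes, where 29.6% of all genes were highest there. In +PBS-1w, replicate 3 was highest for 29 genes (37.9% of all genes) and replicate 1 lowest for 33 (29.2%). In +MSC-4w, replicate 2, the library with the largest total count, was highest for 34 genes (22.9%) and replicate 1 lowest for 29 (34.6%). The median log2 ratio of the 35 genes to the Intact mean ran from 0.99 to 2.06 within +MSC-4w and from 1.69 to 2.31 within +PBS-4w, so the libraries of both groups overlapped. Replicate 1 was also lowest for 27 genes in Intact and 30 in +MSC-1w but highest for 32 in +PBS-2w.

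Markers of microglia and macrophages and of T and NK cells were higher after injury, while other immune lists were not uniformly so. The 11 microglia and macrophage markers were all present in Intact, with a summed level of 366 to 594 CPM, and had 3860 to 5133 CPM in sub-SCI, 4077 to 6368 CPM in +PBS-1w, 2786 to 4078 CPM in +PBS-2w and 2085 to 3509 CPM in +PBS-4w. Of them 9 were called higher in sub-SCI, 11 in +PBS-1w and 8 in +PBS-4w, where 16.6%, 13.5% and 13.3% of all genes were. The 9 T and NK cell markers summed to 0.928 to 3.15 CPM in Intact, with Cd3e, Cd3d and Cd3g at 0 in at least 1 Intact library, and to 188 to 206 CPM in sub-SCI. Cd8a alone accounted for 159 to 178 CPM of the sub-SCI sum, and Cd3e for 3.42 to 4.78 CPM. The sum of the 6 dendritic cell markers was lower in sub-SCI (15 to 22.3 CPM) than in Intact (43.9 to 60.1 CPM). Of the 6, 2 were called higher and 1, Flt3, lower, where 16.6% and 17.5% of all genes were. The sum of the 3 B cell markers had a median of 2.13 CPM in Intact and 0.785 CPM in sub-SCI with overlapping libraries, and 0 of the 3 were called.

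Some marker sums also differed between +MSC and +PBS. The T and NK sum was 66.2 to 167 CPM in +PBS-1w and 21.4 to 43.0 CPM in +MSC-1w, with no overlap. At 1 wpt 11.6% of all genes had every +MSC library below every +PBS library. The sum was mostly Cd8a in sub-SCI, and its split by gene in the +PBS and +MSC groups is not given here. The microglia and macrophage sum was 2947 to 3300 CPM in +MSC-1w, below all 3 +PBS-1w libraries. The T and NK sum was 18.8 to 40.7 CPM in +PBS-2w and 14.7 to 17.5 CPM in +MSC-2w, again with no overlap. The neutrophil sum was 399 to 432 CPM in +PBS-2w and 94.1 to 131 CPM in +MSC-2w, while it overlapped at 1 and 4 wpt. The fibroblast and scar matrix sum was 1114 to 1650 CPM in +PBS-2w and 258 to 641 CPM in +MSC-2w, also with no overlap. At 2 wpt 18.4% of all genes showed that pattern. The T and NK sum was 13.8 to 33.0 CPM in +PBS-4w and 12.8 to 25.6 CPM in +MSC-4w. The microglia and macrophage sum was 2045 to 3256 CPM in +MSC-2w and 2327 to 2826 CPM in +MSC-4w, each overlapping with +PBS of the same week. The part of these cells in the change of interferon-stimulated genes was not tested.

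By its median the microglia and macrophage sum was highest in +PBS-1w (5240 CPM, with 5096 CPM in sub-SCI), as was the mean level of 28 of the 35 genes among sub-SCI and the +PBS groups. The T and NK sum was highest in sub-SCI, where it was mostly Cd8a. Within +PBS-1w, replicate 1 held the most microglia and macrophage marker RNA and the lowest interferon-stimulated RNA, and replicate 3 the reverse. In the mean of the weeks, +MSC against +PBS, the 11 microglia and macrophage markers had a median log2 fold change of -0.35, with 9 of 11 below 0 and 0 called. At 4 wpt, where 34 of the 35 interferon-stimulated genes lay below 0, that median was -0.03, with 7 of 11 below 0. In the mean of the weeks 5 of 9 neuron markers were called higher, with a median of 1.01. The 6 fibroblast and scar matrix markers had a median of -1.29 with 0 called. Of all genes, 1.61% were called higher and 0.956% lower in that comparison.

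**Figure D5:**
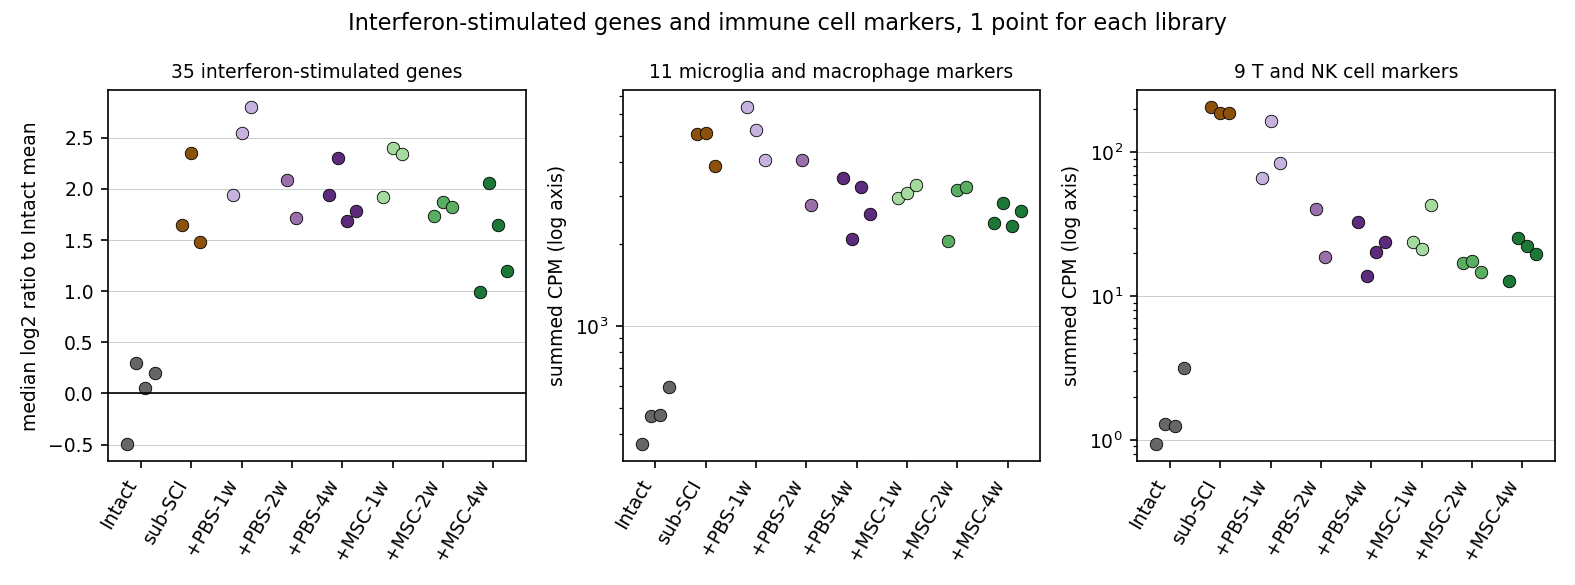
Median log2 ratio of the 35 interferon-stimulated genes to their Intact means (left), and the summed CPM on log axes of 11 microglia and macrophage markers (middle) and 9 T and NK cell markers (right), with 1 point for each library. The left panel is highest in +PBS-1w replicate 3, at 2.80, and the middle panel in +PBS-1w replicate 1, at 6368 CPM. The right panel is highest in sub-SCI, at 188 to 206 CPM, where the sum was mostly Cd8a.

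Other genes of the pathway were counted from 6 lists, with 87 of 99 listed genes in the table. RNA of the ligands was scarce. Of 8 interferon genes in the table none passed the filter, and Ifnb1 had 10 reads, Ifna4 25, Ifna5 6, Ifne 38, Ifnk 24 and Ifng 19 over all 26 libraries. The highest single value was 0.237 CPM, of Ifne in sub-SCI replicate 3. Ifnl1 and Ifnl3 had 0 reads, which allows up to 3 reads or 0.0656 to 0.164 CPM in a library, for counting error only. No change of a ligand could be detected at this depth.

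Of 12 receptors, kinases and factors tested, 9 were called higher in sub-SCI against Intact, 7 in +PBS-1w and 4 in +PBS-4w, and 0 lower. Beside these and the list counts that follow, 16.6% of all genes were called higher in sub-SCI, 13.5% in +PBS-1w and 13.3% in +PBS-4w. Those with the smallest adjusted p in sub-SCI were Il10rb (a subunit of the interferon lambda and interleukin 10 receptors, log2 fold change 2.89 ± 0.17), Irf8 (3.46 ± 0.23) and Irf5 (2.25 ± 0.19), the latter being factors of myeloid cells. Of 13 genes of nucleic acid sensing upstream, 8 were called higher in sub-SCI, led by Unc93b1 (which carries Toll-like receptors to endosomes, 3.67 ± 0.17), Myd88 (their adaptor, 2.55 ± 0.19) and Tmem173 (STING, 2.11 ± 0.17). Of 9 feedback inhibitors, 5 were called higher in sub-SCI, among them the phosphatase gene Ptpn6 (3.24 ± 0.23) and the cytokine signalling inhibitor Socs3 (3.95 ± 0.34).

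Of 17 genes of the interferon gamma response and of antigen processing tested, 16 were called higher in sub-SCI with a median log2 fold change of 2.57, 16 in +PBS-1w with 2.34 and 15 in +PBS-4w with 2.09. Gbp4 (2.57 ± 0.23), the GTPase gene Ifi47 (3.47 ± 0.32) and the immunoproteasome subunit gene Psmb9 (3.29 ± 0.31) had the smallest adjusted p in sub-SCI. Of 27 other interferon-inducible genes, 16 were called higher in sub-SCI, led by Ifitm1 (8.59 ± 0.52) and Ifitm2 (4.95 ± 0.33), membrane proteins that block viral entry, and Slfn2 (3.68 ± 0.27).

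In +MSC against +PBS, mean of the weeks, 2 genes of these lists were called, both lower. Ifitm1 had a log2 fold change of -1.50 ± 0.24 (adjusted p = 0.000513) and Ifitm2 of -1.12 ± 0.18 (adjusted p = 0.000527), where 0.956% of all genes were called lower. Unc93b1 (-0.51 ± 0.10, adjusted p = 0.00139), Il10rb (-0.46 ± 0.10, adjusted p = 0.00335), Myd88 (-0.51 ± 0.11, adjusted p = 0.0037), Irf3 (-0.31 ± 0.07, adjusted p = 0.00595), Slfn2 (-0.65 ± 0.16, adjusted p = 0.0065) and Ikbke (-0.64 ± 0.17, adjusted p = 0.0098) passed the p limit but not the fold limit. Of the 35 interferon-stimulated genes none passed either limit in that comparison. Whether the lists differ from each other was not tested.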

How the data were processed

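Poly(A) RNA of 26 spinal cord segments was read as 150-base pairs. Per the study's methods, the authors trimmed reads with Trim Galore 0.5.0, aligned them with HISAT2 2.1.0, set aside those mapping to the human genome (GRCh38), aligned the rest to Rnor6, kept proper pairs with SAMtools 1.9 and deposited raw counts per gene from featureCounts 1.6.4. The annotation release and strand setting are not given in the sources used here, so paralogs and overlapping genes are uncertain. All 26 single files held the values of the joint count table, which was used.

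Low genes were filtered with filterByExpr, which left 17990 of 32883 genes. Libraries were scaled by the TMM method, and 1 model of the 8 groups was fitted with edgeR 4.0.16 (R 4.3.3) and tested by quasi-likelihood, with Benjamini-Hochberg adjustment over all genes tested. Calls needed an adjusted p under 0.01 and a log2 fold change beyond 1 either way, and differences between weeks an adjusted p under 0.05. CPM used TMM-scaled library sizes. The fit was tested on simulated data. Alternatives were DESeq2 1.42.0, RLE size factors, no low-count filter or at least 10 counts in every library, fits of the groups compared, a replicate block, a term for replicate 1, and each library left out.

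Groups came from the labels, which give 3 +MSC-2w libraries where the methods give 2. The genes and lists were chosen with earlier results of these data known. Named with full values were the 2 genes of each role with the smallest adjusted p in sub-SCI against Intact, the 5 with the smallest p in the mean of the weeks, and those never called against Intact. Ifit1 and genes named in passing were added after their values were seen.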

Additional observations from a re-analysis of the deposited data

Results flagged for a closer look

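In +PBS-4w, Herc6, the gene of an ISG15 ligase, measured 31.8 CPM in replicate 2, while the nearest of the other 3 libraries measured 22 CPM. The gap was 0.887 of the group's whole range. It was the 1 library that stood apart in this way among 105 pairs of a group and a gene examined, where chance gives about 1 in 20. Thus 1 in 105 lay below that rate. Only the groups of 4 libraries were examined, which are Intact, +PBS-4w and +MSC-4w.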

How the results depend on the processing

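Counts of called genes against Intact kept their side under the alternatives, with these exceptions. DESeq2 on the groups compared called 1 gene lower in sub-SCI (Ifit1, log2 fold change -3.08). In +PBS-2w 17 genes were called higher without the replicate 1 libraries, an alternative chosen after seeing the data. For +PBS-4w against sub-SCI, 0 genes were called higher with at least 10 counts in every library, with edgeR on the groups compared and without the replicate 1 libraries. Without the replicate 1 libraries, Parp9 in +MSC-2w against +PBS-2w turned to 0.052. The cause was not tested.

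With each library left out in turn, genes called higher against Intact ranged from 23 to 31 in sub-SCI, 31 to 33 in +PBS-1w, 14 to 31 in +PBS-2w, 29 to 31 in +PBS-4w, 30 to 32 in +MSC-1w, 24 to 30 in +MSC-2w and 21 to 28 in +MSC-4w, and from 0 to 1 in +PBS-4w against sub-SCI. Direction turned for Cmpk2 in sub-SCI against Intact (-0.64 to 0.012), for Gbp2 (-0.38 to 0.16) and Irf1 (-0.29 to 0.018) in +MSC-1w against +PBS-1w, and for Parp9 (-0.56 to 0.022) and Irf9 (-0.055 to 0.0025) in +MSC-2w against +PBS-2w, none of them called. Counts of +MSC against +PBS were 0 in every alternative run, where the share of all genes called was not counted.

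Same-numbered libraries had mixed correlations of deviations, from -0.0781 to 0.233 between +MSC and +PBS and from -0.0521 to 0.247 between injured groups and Intact (0.225 to 0.247 for replicate 1), so the numbers were not taken to pair libraries. With a replicate block, 29, 31, 30 and 30 genes were called higher in sub-SCI and +PBS at 1, 2 and 4 wpt against Intact, 31, 30 and 27 in +MSC, 0 in +MSC against +PBS and 1 in +PBS-4w against sub-SCI. Group sizes of 2 to 4 libraries limit the precision.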
